A study of Mus musculus with 6 samples.

Results

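The Kruppel-like factors (KLF) are a family of transcription factors with C2H2 zinc fingers at the carboxyl end, which bind CACCC and GC-rich elements in promoters and enhancers. The amino-terminal parts differ: *Klf2*, *Klf4*, *Klf6* and *Klf7* encode factors best known as activators, *Klf3* encodes a repressor that binds CtBP, and *Klf9*, *Klf10*, *Klf11*, *Klf13* and *Klf16* encode factors that bind the SIN3A corepressor. In the myeloid lineage KLF4 is known for promoting monocyte differentiation and KLF2 for keeping leukocytes quiescent.

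Transcripts of 10 KLF genes, taken by symbol from a table of 41128 mouse genes, were compared between *Hoxa9*/IRX3 and *Hoxa9*/MTV acute myeloid leukemia (AML) cells. All 6 mice were irradiated C57BL/6 (CD45.2+) females, 6 to 12 weeks old when transplanted, that received drug-selected KIT+ bone marrow (BM) cells of the congenic CD45.1+ strain B6.SJL-Ptprca Pepcb/BoyJ carrying retroviral *Hoxa9*, together with CD45.2+ helper BM cells. In the *Hoxa9*/MTV cohort (mice 1.1, 1.2 and 1.4) the second retrovirus was the empty vector MTV, and in the *Hoxa9*/IRX3 cohort (mice 3.2, 3.3 and 3.5) it carried human *IRX3*, a homeobox gene of the Iroquois class. Both transgenes were driven by retroviral promoters in every transduced cell, and all control leukemias carried *Hoxa9* too. The authors report a later onset of AML in *Hoxa9*/IRX3 than in *Hoxa9*/MTV recipients. Age and time since transplantation at sampling may therefore differ between the cohorts, and their part in the values was not tested. Frozen BM of leukemic mice was thawed, donor-derived CD45.1+ KIT+Gr1+ cells were sorted, and 1 library was made per mouse.

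The library sizes recovered from the deposited values were 7979246 to 9803621 reads. Mouse *Irx3* had no reads in any *Hoxa9*/MTV mouse, whereas mice 3.2, 3.3 and 3.5 had 15.1, 0.421 and 0.148 RPKM (reads per kilobase of gene at a fixed library size). A count of mouse genes does not measure the human transgene directly. *Hoxa9* was at 154 to 363 RPKM in all 6 mice. *Kit*, *Ptprc* (CD45) and *Ly6c2*, which encodes a Gr1 antigen, were expressed in every mouse at 1.63 to 3.12, 1.53 to 2.09 and 413 to 844 RPKM, whereas the other Gr1 antigen gene, *Ly6g*, was at 0.0532 to 1.42 RPKM. Of 8 T and NK cell markers none exceeded 0.5 RPKM in any mouse, *Cdh5*, *Kdr*, *Tek* and *Tie1* of the endothelial markers were at or near 0, and 4 of 7 erythroid markers were at 0 throughout. Other markers of these lists were expressed: *Pecam1* (endothelial) at 0.410 to 5.88 RPKM and *Tfrc* (erythroid) at 4.36 to 8.19 RPKM. *Cd79b* of the B cell markers was at 6.11 to 7.07 RPKM in *Hoxa9*/MTV and 0.149 to 2.31 RPKM in *Hoxa9*/IRX3.

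*Klf2* and *Klf4* fell and *Klf9* rose in the *Hoxa9*/IRX3 leukemias, by 9.40-fold, 5.74-fold and 8.71-fold in mean RPKM, and the other 7 members did not pass the test. A gene passed when limma, fitted to 9522 protein-coding genes on log2(RPKM + 0.5), gave a Benjamini-Hochberg adjusted p under 0.05. Over all tested genes 1.84% passed as higher and 3.52% as lower in *Hoxa9*/IRX3, against 1 and 2 of the 10 members. With 3 mice in each cohort the values of *Klf2* and *Klf4* lay wholly lower, and those of *Klf3*, *Klf7* and *Klf9* wholly higher, in *Hoxa9*/IRX3 than in any *Hoxa9*/MTV mouse. The cohorts were so separated downward for 21.6% and upward for 12.2% of all tested genes. The median log2 fold change was -0.34 over the members and -0.06 over all tested genes. In bulk RNA of sorted cells, fewer cells that express a gene and less of its RNA in each cell cannot be told apart.

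**Figure D1:**
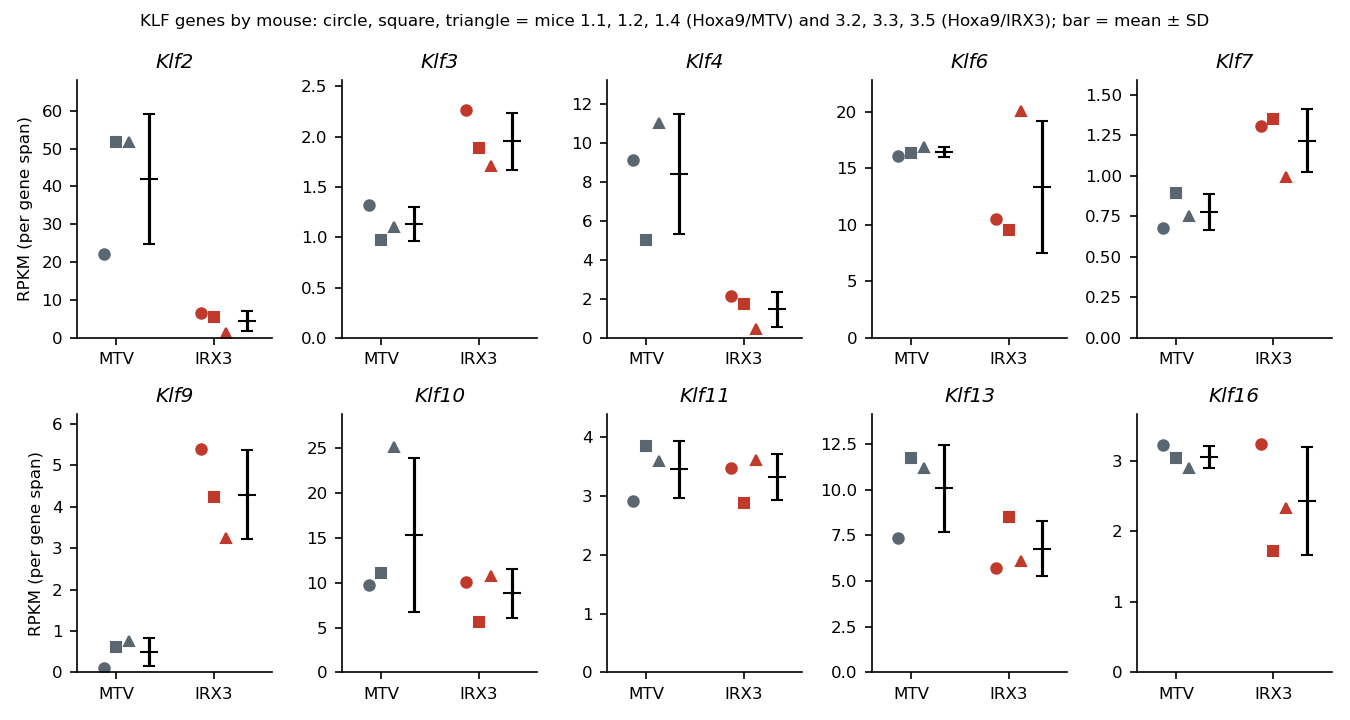
RPKM (y axis, from 0) of each KLF gene in the 3 *Hoxa9*/MTV mice (grey) and the 3 *Hoxa9*/IRX3 mice (red), with the mean ± SD of each cohort as a bar. *Klf2* and *Klf4* lie lower and *Klf3*, *Klf7* and *Klf9* higher in every *Hoxa9*/IRX3 mouse than in any *Hoxa9*/MTV mouse. *Klf6*, *Klf10*, *Klf11*, *Klf13* and *Klf16* overlap. Of all tested genes 21.6% were so separated downward and 12.2% upward.

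The upstream sequences of the 3 genes that passed, *Klf2*, *Klf4* and *Klf9*, are shown first. They are the bases before the RefSeq transcription start in GRCm38.p6, cut where the annotated gene begins, and are written 5′ to 3′ on the strand of the gene. Capitals mark the motifs found on either strand: GGGCGG (known as the GC box), CACCC (the KLF core), CCAAT (which binds NF-Y) and the MEF2 motif. A match on the opposite strand appears as its reverse complement.
Klf2, chr8:72318812-72319032, plus strand: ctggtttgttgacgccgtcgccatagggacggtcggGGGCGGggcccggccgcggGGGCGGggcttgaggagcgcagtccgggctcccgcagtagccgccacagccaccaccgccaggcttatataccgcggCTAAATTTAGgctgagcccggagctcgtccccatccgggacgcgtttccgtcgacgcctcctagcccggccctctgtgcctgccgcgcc
Klf4, chr4:55532476-55532725, minus strand: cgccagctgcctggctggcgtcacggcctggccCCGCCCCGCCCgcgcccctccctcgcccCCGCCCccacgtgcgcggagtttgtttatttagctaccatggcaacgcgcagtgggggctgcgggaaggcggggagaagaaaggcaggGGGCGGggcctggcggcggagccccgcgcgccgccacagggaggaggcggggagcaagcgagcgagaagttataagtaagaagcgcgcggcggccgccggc
Klf9, chr19:23140976-23141225, plus strand: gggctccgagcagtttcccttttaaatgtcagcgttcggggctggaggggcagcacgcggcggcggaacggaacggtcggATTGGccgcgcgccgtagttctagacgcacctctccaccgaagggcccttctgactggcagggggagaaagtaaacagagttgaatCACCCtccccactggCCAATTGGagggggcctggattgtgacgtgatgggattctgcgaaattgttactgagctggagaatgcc

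The *Klf2* and *Klf4* sequences are GC-rich (71.5% and 74.0%), and that of *Klf9* is less so (59.6%), beside a median of 52.4% over all 32851 promoter windows of RefSeq. Within the 250 bases before the start *Klf2* holds 2 GC boxes, *Klf4* holds 4, of which 2 overlap, and *Klf9* holds none. The GC box was found in 32.7% of all windows and in 7 of the 8 members with an entry, *Klf2*, *Klf3*, *Klf4*, *Klf6*, *Klf7*, *Klf9*, *Klf11* and *Klf13*. *Klf9* holds 3 CCAAT motifs, of which 2 overlap on opposite strands, and *Klf2* and *Klf4* hold none. The motif is not particular to *Klf9*: *Klf6* holds 4, and *Klf11* and *Klf13* hold 2 each, none of which passed. At least 1 was found in 4 of the 8 members and in 33.8% of windows. The MEF2 motif, a site for the MEF2 factors known to act on *Klf2*, was found between positions -118 and -109 of *Klf2*, in none of the other 7 members, and in 0.508% of windows. A CACCC core was found once each in *Klf2* (in the part inside the annotated gene, not printed) and *Klf9* and not in *Klf4*. *Klf3* holds 5 such cores, *Klf7* holds 3 and *Klf13* holds 1. The core was thus in 5 of the 8 members, and in 52.0% of windows. The motifs TATAAA (12.4% of windows), TGACGTCA (the CRE, 1.55%), TGACTCA (AP-1, 4.46%), ACANNTGT (Iroquois, 6.31%) and TGATTNAT (HOX with PBX, 2.82%) were in none of the 8 member windows. These matches describe letters in the sequence and are not measured binding, and any link to the changes in RNA was not tested.

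Among the members known as activators, *Klf2* (ENSMUSG00000055148; chromosome 8 of GRCm38, 72319033 to 72321656, plus strand), which encodes a quiescence factor of T cells, monocytes and endothelium, had the largest fall. Its level was 22.1, 51.8 and 51.8 RPKM in mice 1.1, 1.2 and 1.4, and 6.58, 5.40 and 1.39 RPKM in mice 3.2, 3.3 and 3.5. The lowest control mouse thus lay above the highest *Hoxa9*/IRX3 mouse, and the widest gap within *Hoxa9*/IRX3 was to mouse 3.5. Between 29 and 1315 reads stood behind these values. The means were 41.9 ± 17.1 and 4.46 ± 2.72 RPKM (SD, n = 3 each), 9.40-fold lower in *Hoxa9*/IRX3, with a log2 fold change of -3.21 (SE 0.57, 95% confidence interval -4.57 to -1.84, limma adjusted p = 0.0310). *Klf2* no longer passed when mouse 1.1, 1.2 or 1.4 was left out (adjusted p = 0.0672, 0.136 and 0.135), with log2 fold changes from -3.61 to -2.61 over the removal of each of the 6 mice.

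*Klf4* (ENSMUSG00000003032; chromosome 4, 55527143 to 55532466, minus strand), a factor of monocyte differentiation and of reprogramming to pluripotency, was at 9.15, 5.02 and 11.0 RPKM in mice 1.1, 1.2 and 1.4. In mice 3.2, 3.3 and 3.5 it was at 2.16, 1.76 and 0.471 RPKM, the last of these from 20 reads. The *Hoxa9*/IRX3 mice stood in the same order as for *Klf2*, mouse 3.5 being the lowest, whereas the control mice did not: mouse 1.2 was the lowest for *Klf4* and mouse 1.1 for *Klf2*. Mean *Klf4* was 8.41 ± 3.08 RPKM in the controls and 1.47 ± 0.884 RPKM in *Hoxa9*/IRX3 (SD, n = 3 each), 5.74-fold lower. The log2 fold change was -2.24 (SE 0.44, 95% confidence interval -3.30 to -1.18, limma adjusted p = 0.0391). *Klf4* missed the threshold without mouse 1.1 (adjusted p = 0.138), 1.2 (0.0951), 1.4 (0.153) or 3.3 (0.0519), and its log2 fold change lay between -2.55 and -1.79 with any 1 mouse removed. *Klf2* and *Klf4* also missed it when all gene types were tested together (adjusted p = 0.0547 and 0.0667) or no filter on low values was used (0.0701 and 0.0847), and *Klf4* with limma voom on recovered reads (0.0616) or a pseudocount of 0.1 (0.0532).

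*Klf6* (chromosome 13, 5861482 to 5870394, plus strand), an activator induced by injury and cytokines, was at 16.1, 16.3 and 16.9 RPKM in *Hoxa9*/MTV, compared with 10.5, 9.56 and 20.1 RPKM in mice 3.2, 3.3 and 3.5. Mice 3.2 and 3.3 thus lay under all control mice and mouse 3.5 over them. The coefficient of variation was 2.55% in *Hoxa9*/MTV and 43.6% in *Hoxa9*/IRX3. The log2 fold change was -0.37 (SE 0.28, 95% confidence interval -1.03 to 0.30, adjusted p = 0.453), and -0.69 (adjusted p = 0.0416) without mouse 3.5. *Klf6* therefore differed from *Klf2* and *Klf4* in where mouse 3.5 stood: highest of the 6 mice for *Klf6* and lowest for *Klf2* and *Klf4*.

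*Klf7* (chromosome 1, 64029447 to 64122282, minus strand), an activator known from neurons and lymphoid leukemia, was at 0.678, 0.895 and 0.754 RPKM in *Hoxa9*/MTV against 1.31, 1.35 and 0.992 RPKM in *Hoxa9*/IRX3. The cohorts did not overlap, yet *Klf7* did not pass, with a log2 fold change of 0.42 (SE 0.13, 95% confidence interval 0.10 to 0.75, adjusted p = 0.120). The interval of a single gene here lies above 0, while the p-value is adjusted over all 9522 genes.

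*Klf3* (chromosome 5, 64803388 to 64832901, plus strand), the CtBP-binding repressor, which acts in erythroid and B cells, was at 1.32, 0.977 and 1.10 RPKM in *Hoxa9*/MTV against 2.27, 1.89 and 1.71 RPKM in *Hoxa9*/IRX3. All *Hoxa9*/IRX3 mice exceeded all control mice. The log2 fold change of 0.59 (SE 0.14, 95% confidence interval 0.26 to 0.91) had an adjusted p of 0.0608. *Klf3* did pass when the RPKM of the mice were rescaled by median-of-ratios factors (0.65, adjusted p = 0.0349) or quantile-normalized (0.67, adjusted p = 0.0297), so its call rested on the scaling between libraries.

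Among the SIN3A-binding members *Klf9* (ENSMUSG00000033863; chromosome 19, 23141226 to 23168134, plus strand) rose. *Klf9* encodes a repressor known as a target of the glucocorticoid and thyroid hormone receptors. It was at 0.101, 0.623 and 0.753 RPKM in mice 1.1, 1.2 and 1.4, and at 5.40, 4.23 and 3.24 RPKM in mice 3.2, 3.3 and 3.5. Every *Hoxa9*/IRX3 mouse lay far above every control mouse, and the lowest control, mouse 1.1, had about 24 reads where mouse 3.2 had about 1286. The means were 0.492 ± 0.345 and 4.29 ± 1.08 RPKM (SD, n = 3 each), 8.71-fold higher in *Hoxa9*/IRX3. On the log2(RPKM + 0.5) scale, which understates changes of low genes, the rise was 2.32 (SE 0.31, 95% confidence interval 1.58 to 3.06, limma adjusted p = 0.0143). It missed the threshold without mouse 1.2 (adjusted p = 0.0644) or 1.4 (0.0514), and lay between 1.99 and 2.52 whichever mouse was removed. Mice 3.2, 3.3 and 3.5 had the same order, from high to low, for *Klf9* as for *Klf2* and *Klf4*, although the cohorts differed in opposite directions.

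*Klf10* (chromosome 15, 38291463 to 38300706, minus strand), also named TIEG1 for its induction by TGF-beta, was at 9.75, 11.1 and 25.2 RPKM in *Hoxa9*/MTV against 10.1, 5.62 and 10.8 RPKM in *Hoxa9*/IRX3. Mouse 1.4 stood apart above all others, and the remaining mice overlapped between cohorts (log2 fold change -0.69, SE 0.40, 95% confidence interval -1.66 to 0.28, adjusted p = 0.338). *Klf11* (chromosome 12, 24651274 to 24662789, plus strand), its closest relative, was at 2.92, 3.84 and 3.59 RPKM in *Hoxa9*/MTV against 3.47, 2.88 and 3.60 RPKM in *Hoxa9*/IRX3. It had the smallest difference of all members, -0.05 on the log2 scale (SE 0.14, adjusted p = 0.868), with a 95% confidence interval from -0.39 to 0.30, and its sign turned under another scaling (0.03 by median-of-ratios factors and 0.06 after quantile normalization).

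*Klf13* (chromosome 7, 63886351 to 63938915, minus strand), a factor of lymphocytes known for activating *Ccl5*, was at 7.36, 11.7 and 11.2 RPKM in *Hoxa9*/MTV against 5.73, 8.51 and 6.09 RPKM in *Hoxa9*/IRX3. Mice 1.1 and 3.3 made the cohorts overlap (log2 fold change -0.53, SE 0.23, 95% confidence interval -1.08 to 0.02, adjusted p = 0.216). Part of *Klf13*, 3166 bases, overlaps *Gm27252* on the opposite strand, a noncoding gene with 81, 234 and 239 reads in *Hoxa9*/MTV and 21, 63 and 11 reads in *Hoxa9*/IRX3, against 2555 to 5690 reads for *Klf13*. Whether counting used strand is not given in the sources used here, so reads in the overlap cannot be told apart. *Klf16* (chromosome 10, 80567124 to 80577321, minus strand), known as a regulator of dopamine receptor genes, was at 3.22, 3.03 and 2.90 RPKM in *Hoxa9*/MTV against 3.24, 1.72 and 2.33 RPKM in *Hoxa9*/IRX3. Mouse 3.2 was the highest of the 6 mice, by a small margin over mouse 1.1, and mice 3.3 and 3.5 lay under all controls (log2 fold change -0.31, SE 0.20, 95% confidence interval -0.77 to 0.16, adjusted p = 0.372).

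**Figure D2:**
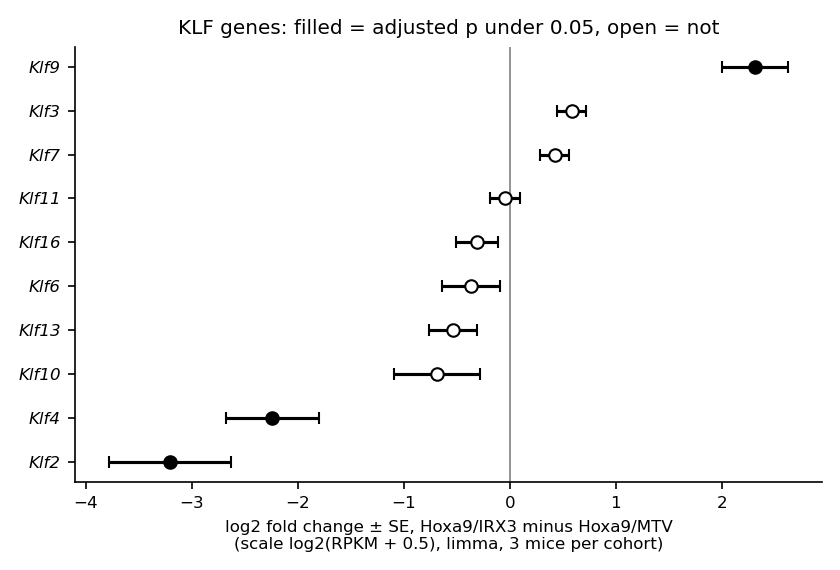
Log2 fold change of each KLF gene, *Hoxa9*/IRX3 minus *Hoxa9*/MTV on log2(RPKM + 0.5), with its SE as a bar (limma, 3 mice per cohort). Filled points passed at an adjusted p under 0.05 (*Klf9* at 2.32, *Klf4* at -2.24 and *Klf2* at -3.21), and open points, from -0.69 for *Klf10* to 0.59 for *Klf3*, did not.

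The deposited RPKM divide by the whole gene with its introns, so levels of different members were compared after rescaling to exon length. The rescaling treats every read of a gene as exonic. Any intron reads in the counts would raise members with long introns, such as *Klf13* and *Klf7*, and their part was not tested. After rescaling *Klf13* was the most abundant member in both cohorts, with means of 70.4 ± 16.6 in *Hoxa9*/MTV and 47.3 ± 10.6 in *Hoxa9*/IRX3 (RPKM per exon length, SD, n = 3 each). *Klf2* was at rank 2 in *Hoxa9*/MTV (59.5 ± 24.3), a rank at which its range, 31.4 to 73.6, overlapped those of *Klf13* (51.3 to 81.9), *Klf10* (21.6 to 55.7) and *Klf6* (32.7 to 34.4). In *Hoxa9*/IRX3 *Klf2* was at rank 8 (6.33 ± 3.87) and *Klf4* fell from rank 5 (14.7 ± 5.38) to last (2.56 ± 1.54). *Klf9* moved from last (2.75 ± 1.93) to rank 3 (24.0 ± 6.02), where its range of 18.1 to 30.2 overlapped those of *Klf6* (19.4 to 40.9) and *Klf10* (12.4 to 23.8). *Klf16*, *Klf11* and *Klf3* held ranks 6, 7 and 9 by mean in both cohorts. The low ranks in *Hoxa9*/IRX3 overlapped as well. There *Klf2*, at 1.97 to 9.35, overlapped *Klf16* (6.56 to 12.4) and *Klf11* (7.64 to 9.56). It also overlapped *Klf3* (4.48 to 5.95) and *Klf4* (0.822 to 3.78).

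As a share of the summed level of the 10 members, *Klf2* made up 17.0%, 28.3% and 24.7% in mice 1.1, 1.2 and 1.4, and 5.52%, 4.79% and 1.21% in mice 3.2, 3.3 and 3.5. *Klf9* made up 0.306%, 1.34% and 1.41% in the first and 17.8%, 14.8% and 11.2% in the second cohort. The sum itself was 185, 260 and 297 in the *Hoxa9*/MTV mice and 169, 160 and 162 in the *Hoxa9*/IRX3 mice. The range of the sum was thus narrow in *Hoxa9*/IRX3 and wider in *Hoxa9*/MTV, where mouse 1.1 lay nearest to the other cohort.

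**Figure D3:**
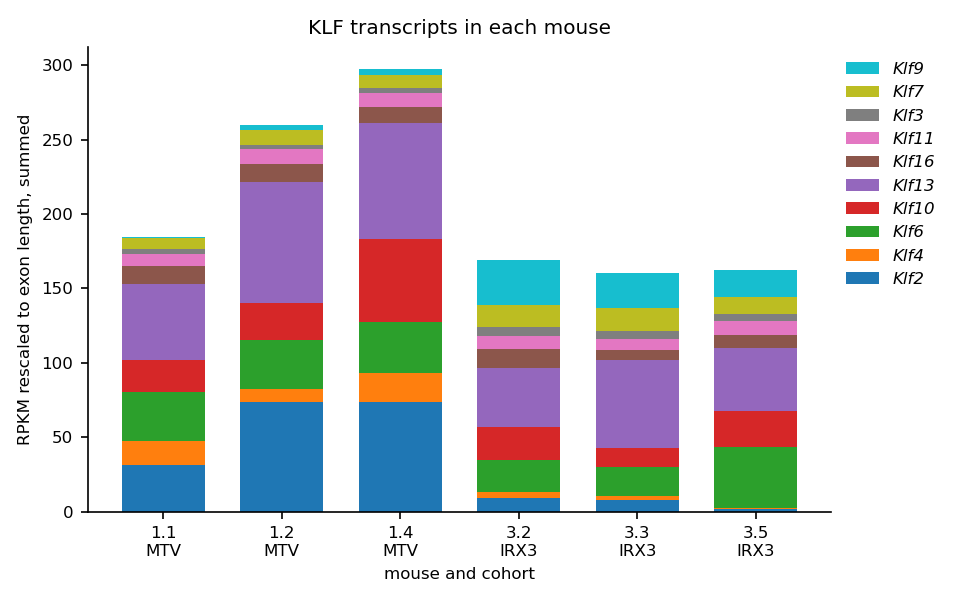
RPKM rescaled to exon length (y axis, from 0), stacked over the 10 KLF genes in each mouse. The *Klf2* segment at the base shrinks from 31.4 to 73.6 in *Hoxa9*/MTV to 1.97 to 9.35 in *Hoxa9*/IRX3, and the *Klf9* segment at the top grows from 0.566 to 4.21 to 18.1 to 30.2.

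Of the 7 other KLF genes in the table, *Klf5*, an activator of epithelial cells and granulocytes, was the 1 above the threshold of 0.5 RPKM. It was at 0.307, 0.221 and 0.400 RPKM in *Hoxa9*/MTV against 1.30, 0.229 and 1.20 RPKM in mice 3.2, 3.3 and 3.5. Mouse 3.3 stood with the controls and *Klf5* did not pass (log2 fold change 0.70, SE 0.35, adjusted p = 0.277). It met the filter on low values through mice 3.2 and 3.5 alone. *Klf8*, a CtBP-binding repressor like *Klf3*, had 110, 112 and 153 reads in *Hoxa9*/MTV and 8, 21 and 89 reads in *Hoxa9*/IRX3, too low for its long gene to be tested. Fitted per exon length it changed by -1.43 (SE 0.50, adjusted p = 0.147). *Klf1*, the erythroid factor, had 1 to 4 reads in *Hoxa9*/MTV and 8 to 10 reads in *Hoxa9*/IRX3, and *Klf15* had 0 in each *Hoxa9*/MTV mouse and 4 in each *Hoxa9*/IRX3 mouse. With no filter on low values *Klf15* passed (0.10, adjusted p = 0.0112) and *Klf1* did not (0.42, adjusted p = 0.0539). *Klf17* had 1 read in 1 mouse, and *Klf12* and *Klf14* were listed at 0.

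The SP genes encode the relatives of the KLF factors that bind GC boxes, and 4 of the 9 were tested, with none passing by limma in either direction and 1, *Sp3*, at an unadjusted p under 0.05, which 24.3% of all tested genes reached. *Sp3* was at 8.19, 7.22 and 6.72 RPKM in *Hoxa9*/MTV against 5.76, 4.43 and 3.86 RPKM in *Hoxa9*/IRX3. The cohorts did not overlap (log2 fold change -0.62, SE 0.17, adjusted p = 0.0858), and *Sp3* passed without mouse 3.2 (-0.76, adjusted p = 0.0373). *Sp1*, *Sp2* and *Sp4* overlapped, with log2 fold changes of 0.01, -0.10 and 0.12 and adjusted p-values of 0.976, 0.721 and 0.614. *Sp5* and *Sp8* were listed at 0, and *Sp6*, *Sp7* and *Sp9* were at 0.110 RPKM or less in every mouse.

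The genes known to act with or on the KLF factors were then counted. None of 10 tested cofactors (SIN3, HDAC, CtBP and acetyltransferase genes) passed in either direction by limma. By the same test 0 of 9 TGF-beta pathway genes and 0 of 5 glucocorticoid response genes passed. Few would at the shares of all tested genes, 1.84% higher and 3.52% lower. The glucocorticoid response genes included *Fkbp5* (log2 fold change 0.02, adjusted p = 0.959) and *Nr3c1*, the glucocorticoid receptor (0.16, adjusted p = 0.611). Of the ubiquitin ligase genes the 1 tested, *Vhl*, did not pass (-0.27, adjusted p = 0.457). At an unadjusted p under 0.05, 2 of these cofactors (*Sap30*, -0.66, and *Hdac2*, 0.29), 1 TGF-beta pathway gene (*Smad4*, -0.35) and 1 glucocorticoid response gene (*Tsc22d3*, -0.81) were called, while 24.3% of all tested genes had such a p. *Zbtb16* (PLZF), a further gene of the glucocorticoid list, was too low for its long gene to be tested. It had 294, 405 and 446 reads in *Hoxa9*/MTV and 2, 8 and 29 reads in *Hoxa9*/IRX3. Fitted per exon length *Zbtb16* fell by 3.50 on the log2 scale with an SE of 0.34 (adjusted p = 0.00407).

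The ERK5 kinase cascade, the MEF2 factors and the FOXO factors are known inputs to *Klf2* and *Klf4*. Of 7 tested genes 1 fell and none rose, against 3.52% and 1.84% of all tested genes. An unadjusted p under 0.05 was reached by 4, and 4 lay wholly lower in *Hoxa9*/IRX3, against 24.3% and 21.6% of all tested genes. The gene that fell was *Mef2d*, at 14.0, 13.4 and 12.3 RPKM in *Hoxa9*/MTV against 5.32, 6.13 and 5.27 RPKM in *Hoxa9*/IRX3. The log2 fold change was -1.17 with an SE of 0.13 (adjusted p = 0.00813), a call lost without mouse 1.1 (adjusted p = 0.0529) or 1.2 (0.0564). *Mef2c* (-0.86, adjusted p = 0.123), *Map3k3* (-0.53, adjusted p = 0.0563) and *Foxo3* (-0.32, adjusted p = 0.112) were lower in all *Hoxa9*/IRX3 mice than in any control but did not pass. *Mapk7*, which encodes ERK5, was highest in mouse 3.3 at 25.8 RPKM and overlapped (0.21, adjusted p = 0.800).

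*Klf2*, *Klf4*, *Klf6* and *Klf10* belong to the genes that cells induce within minutes to hours of stimulation, so the immediate early genes were described beside them. Of 15 tested, 2 fell and none rose, 9 had an unadjusted p under 0.05, and 8 lay wholly lower in *Hoxa9*/IRX3. The shares of all tested genes were 3.52% lower, 1.84% higher, 24.3% with such a p and 21.6% wholly lower. Of the 15, 14 had negative log2 fold changes, with a median of -1.17. *Fos* was at 152, 249 and 161 RPKM in *Hoxa9*/MTV against 26.1, 58.7 and 10.9 RPKM in *Hoxa9*/IRX3 (-2.81, SE 0.58, adjusted p = 0.0444). *Nr4a1*, which encodes an orphan nuclear receptor, was at 0.768, 1.48 and 2.07 RPKM and at 0.256, 0.270 and 0 RPKM (-1.49, SE 0.30, adjusted p = 0.0417). It met the filter on low values through the *Hoxa9*/MTV mice alone. *Fos* lost its call without mouse 1.1 (adjusted p = 0.129), 1.2 (0.169), 1.4 (0.151) or 3.2 (0.0682), and *Nr4a1* in every such fit (0.0513 to 0.164). *Jun* (-2.20, adjusted p = 0.0549) and *Egr1* (-3.09, adjusted p = 0.147) did not pass, although neither overlapped. Mouse 3.5 was the lowest of the 6 mice for *Fos*, *Jun*, *Egr1*, *Junb*, *Nr4a1*, *Klf2* and *Klf4*, but not for *Klf6* or *Klf10*. Mouse 1.4 was the highest for several genes of the list, *Egr1*, *Junb*, *Btg2* and *Ier3* among them. It was also the highest for *Klf10*, *Klf4* and, by a small margin over mouse 1.2, *Klf2*. The summed level of the 16 listed genes was 883 to 1538 RPKM in *Hoxa9*/MTV against 262 to 648 RPKM in *Hoxa9*/IRX3. The part of this group's level in the *Klf2* and *Klf4* values was not tested.

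**Figure D4:**
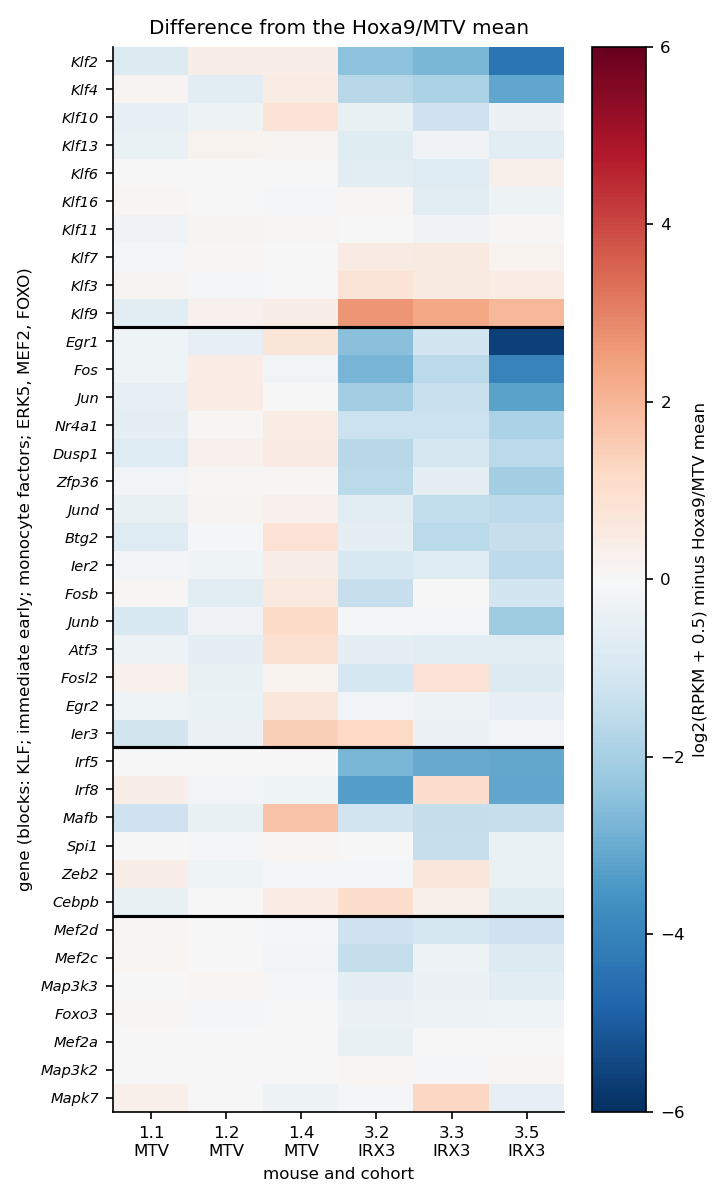
Log2(RPKM + 0.5) in each mouse minus the *Hoxa9*/MTV mean, for the KLF genes and, under each line, the immediate early genes, the monocyte transcription factors and the ERK5, MEF2 and FOXO genes (blue lower, red higher). *Klf2*, *Klf4*, *Fos*, *Jun*, *Egr1* and *Irf5* are blue in all 3 *Hoxa9*/IRX3 mice, *Klf9* is red in all 3, and *Irf8* is blue in mice 3.2 and 3.5 and red in mouse 3.3.

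Of the genes known as KLF2 targets in leukocytes and endothelium, 3 were tested and 1 fell, against 3.52% of all tested genes. *Itgb7*, an integrin for homing to gut, was at 4.12, 4.81 and 5.49 RPKM in *Hoxa9*/MTV against 0.142, 0.0576 and 0.149 RPKM in *Hoxa9*/IRX3 (log2 fold change -3.10, SE 0.14, adjusted p = 0.000502), and kept its call whichever mouse was removed. It met the filter on low values through the *Hoxa9*/MTV mice alone. *Thbd* (thrombomodulin) was at 18.6, 14.5 and 11.2 RPKM and at 0.637, 6.11 and 0.572 RPKM (-2.90, adjusted p = 0.0654). *S1pr1* was listed at 0 in 5 of the 6 mice.

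*Klf4* is 1 of the factors of monocyte development. Of 7 further monocyte transcription factor genes 2 fell and none rose, against 3.52% and 1.84% of all tested genes. *Irf5* was at 10.9, 10.7 and 11.2 RPKM in *Hoxa9*/MTV against 1.24, 0.923 and 0.863 RPKM in *Hoxa9*/IRX3 (-2.93, SE 0.13, adjusted p = 0.000502), and *Nr4a1* is given above. *Irf8*, known to act upstream of *Klf4* in monocyte progenitors, was at 39.6, 27.0 and 25.5 RPKM in *Hoxa9*/MTV against 2.61, 63.1 and 2.98 RPKM in mice 3.2, 3.3 and 3.5 (-1.79, adjusted p = 0.367). Mouse 3.3 thus had the highest *Irf8* of all mice while its *Klf4*, 1.76 RPKM, lay under every control. *Spi1* and *Cebpb* overlapped (-0.57 and 0.21, adjusted p = 0.344 and 0.815).

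Markers of other cell types moved with the cohorts in part. Over all tested genes 1.84% passed as higher and 3.52% as lower by limma. Of the monocyte and macrophage markers 6 were tested and 2 fell, *Cd68* (-2.68, adjusted p = 0.0135) and *Ccr2* (-2.06, adjusted p = 0.00843). Negative log2 fold changes were found for 4 of the 6, whereas *Ly6c2* (0.56, adjusted p = 0.278) and *Mrc1* (0.45, adjusted p = 0.498) had positive ones without passing. The summed level of the 9 listed markers was 520 to 598 RPKM in *Hoxa9*/MTV against 486 to 869 RPKM in *Hoxa9*/IRX3, most of it *Ly6c2*. Of the 10 neutrophil markers 2 rose, *Ly6g* (1.35, adjusted p = 0.0205) and *Retnlg* (1.75, adjusted p = 0.0285), with sums of 1483 to 2175 and 1095 to 3335 RPKM. Another 3 of the 10 had negative log2 fold changes without passing, *Ltf* (-0.99, adjusted p = 0.315), *Mmp8* (-0.75, adjusted p = 0.320) and *Ngp* (-0.13, adjusted p = 0.870). *Ly6g* met the filter on low values through the *Hoxa9*/IRX3 mice alone. Of the B cell markers *Cd79b* fell (-2.65, adjusted p = 0.0383), the sums being 6.26 to 7.13 and 0.276 to 2.31 RPKM, whereas *Ms4a1* and *Pax5* were listed at 0 and *Ebf1* had at most 3 reads in a mouse. *Tfrc* (erythroid list), *Gp9* and *Gp1bb* (megakaryocyte list) and *Pecam1* (endothelial list), the other tested markers, did not pass. Leaving out mouse 1.1, 1.2 or 1.4 ended the calls of *Cd68* (adjusted p = 0.0559, 0.0763 and 0.0762), *Ly6g* (0.0828, 0.0984 and 0.103), *Retnlg* (0.103, 0.125 and 0.125) and *Cd79b* (0.126, 0.154 and 0.151). That of *Ccr2* was lost without mouse 1.1 (0.0528) or 1.4 (0.0515), and that of *Cd79b* also without mouse 3.2 (0.0657) or 3.3 (0.0574). The part of these marker levels in the KLF values was not tested.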

How the data were processed

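RNA of sorted CD45.1+ KIT+Gr1+ AML cells was analyzed from 6 mice, 3 per cohort, as the labels assign them. The cohorts share no mouse numbers. Strand-specific polyA libraries were sequenced by the authors as paired ends of 75 bases, and the authors aligned them on GRCm38 using Bowtie2 2.2.1, which does not split reads across exon junctions, used SAMtools 0.1.19 to drop alignments with a Phred score under 20, counted over Ensembl genes and deposited RPKM. These divide by the whole gene with its introns. Reads per gene were recovered from the steps of low RPKM and were whole within 0.01 for 65.0% of the tested genes. They are approximate for the rest, *Klf9* included. Genes were annotated with GENCODE M21.

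Protein-coding genes over 0.5 RPKM in at least 1 mouse (9522) were tested with limma (version 3.58.1, R 4.3.3) on log2(RPKM + 0.5), moderating variances along a trend, two-sided, with Benjamini-Hochberg adjustment over all of them. The script was tested on simulated data. Whether the mice of a cohort shared a transduced pool is not given in the sources used here. The p-values weigh the difference between cohorts against the spread between these mice, moderated across genes. The reads give counting error only.

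Named were all 10 members, the other KLF and SP genes, list genes past the test with the largest changes, list genes beside a member they move with, and the 3 tested genes nearest in pattern to *Klf2* and *Klf9*. *Zbtb16*, *Sap30*, *Hdac2*, *Smad4*, *Tsc22d3*, *Thbd*, *S1pr1*, *Fkbp5*, *Nr3c1*, *Vhl*, *Mef2c*, *Map3k3*, *Foxo3*, *Mapk7* and untested or unpassed markers were named after their values were seen. Some list genes are not reported here. The members and lists were chosen with earlier results of these data known. Promoter sequences are from RefSeq (GRCm38.p6), which matched 8 of 10 members; motifs in the proteins were not analysed here. Alternatives changed the pseudocount, the filter, the gene types, the scaling, the length basis, the variance model, the test and the mice.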

Additional observations from a re-analysis of the deposited data

How the results depend on the processing

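*Klf9* passed in all 12 alternatives that kept all 6 mice, *Klf2* in 10 of 12 and *Klf4* in 8 of 12, and their directions held in all fits, those without 1 mouse included. Each had an unadjusted p under 0.05 in every fit. *Klf2* and *Klf4* both missed the threshold when all gene types were tested (adjusted p = 0.0547 and 0.0667) and with no filter on low values (0.0701 and 0.0847), leaving 0 members lower by limma. *Klf4* alone did so with limma voom on recovered reads (0.0616) and with a pseudocount of 0.1 (0.0532), leaving 1 lower. With median-of-ratios scaling or quantile normalization 2 members were higher, *Klf3* joining *Klf9*, and *Klf11* turned to 0.032 and 0.062. Those scalings moved the median of all genes from -0.06 to 0.01 and 0.02. Over all genes, 299 were higher with RPKM per exon length in place of 175, and 204 lower with all gene types in place of 335. Quantile normalization gave 234 higher and 274 lower.

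Without 1 mouse, the genes higher numbered 24 to 255 and those lower 37 to 506, the members higher 0 to 1 and lower 0 to 3, and *Klf11* lay between -0.15 and 0.04, turning to 0.040 without mouse 3.3 and 0.026 without mouse 1.2. The counts were 30, 25 and 24 higher and 46, 41 and 37 lower without mouse 1.1, 1.2 and 1.4, and 506 lower without mouse 3.2. Members lower numbered 0 without mouse 1.1, 1.2 or 1.4, 1 without mouse 3.3, and 3 without mouse 3.5, when *Klf6* joined. These fits have fewer samples, and the cause of the difference between mice was not tested. *Klf7* has no value with the filter of over 1 RPKM in at least 3 mice. No paired analysis was possible because the cohorts share no mouse numbers. Reads limit *Klf4* in mouse 3.5 (20) and *Klf9* in mouse 1.1 (about 24).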

Other observations

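The tested genes whose centred log2(RPKM + 0.5) lay nearest to *Klf2* over the 6 mice were *Cd68*, *Fos* and *Hist1h1b*, at root mean square distances of 0.501, 0.558 and 0.569. *Cd68*, a lysosomal glycoprotein of macrophages, was at 67.9, 87.3 and 80.1 RPKM in *Hoxa9*/MTV and 13.1, 18.3 and 6.71 RPKM in *Hoxa9*/IRX3. *Hist1h1b*, a linker histone, was at 2.74, 5.35 and 3.34 RPKM and at 0.608, 0.137 and 0 RPKM (-2.56, adjusted p = 0.0143). Its call was lost without mouse 1.1 (adjusted p = 0.0529), 1.2 (0.0675) or 1.4 (0.0762).

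Nearest to *Klf9* were *Fkbp11*, *Tslp* and *Mogat2*, at distances of 0.237, 0.342 and 0.365. *Fkbp11*, a peptidyl-prolyl isomerase of the secretory pathway, was at 0.709, 1.29 and 1.22 RPKM in *Hoxa9*/MTV and 6.78, 8.18 and 5.27 RPKM in *Hoxa9*/IRX3 (2.21, adjusted p = 0.00553). *Tslp*, a cytokine, was at 0 to 0.0234 RPKM and at 2.10, 2.31 and 1.42 RPKM (2.25, adjusted p = 0.00298), and met the filter on low values through the *Hoxa9*/IRX3 mice alone. *Mogat2*, an acyltransferase of triglyceride synthesis, was at 0.949, 0.869 and 0.968 RPKM and at 6.87, 5.42 and 5.42 RPKM (2.16, adjusted p = 0.00160). All of *Fkbp11*, *Tslp* and *Mogat2* passed in each of the 6 fits without 1 mouse. The distance ranks genes with a like difference between cohorts first and describes these 6 libraries.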
